A study of Mus musculus with 12 samples.

Results

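A mouse 3T3 fibroblast line without p53 (p53 -/-, called p53-null here) was compared with a 3T3 line with wildtype p53 after both had been kept for 18 h in medium with 25 mM glucose and no glutamine. 3T3 lines are immortal lines derived from mouse embryonic fibroblasts. Each group held 3 samples, so the comparison used 6 of the series' 12 samples, and the other 6 are the same lines in complete medium with 2 mM glutamine. RNA of whole cultures was sequenced, and the deposited values are RPKM, reads scaled by transcript length and by the reads of the library. Genes that reached 1 RPKM in at least 3 of the 6 libraries were tested, which kept 10935 of 19439 gene entries. The labels name 1 line per genotype and do not say that the 3 samples of a group came from separate cultures. The absence of p53 and every other difference between the lines therefore cannot be told apart, and the p-values reflect the spread among these samples alone, which may be technical.

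p53 is a transcription factor that is kept scarce by Mdm2, the ubiquitin ligase that marks it for destruction, and that accumulates under DNA damage and metabolic stress. Its target genes stop the cell cycle, repair DNA, trigger cell death or change metabolism, and Mdm2 is itself a target. Glutamine supplies nitrogen for nucleotides and other amino acids and carbon for the tricarboxylic acid cycle. Cells that lack an amino acid activate the kinase Gcn2, which phosphorylates eIF2alpha, slows translation and favours translation of the transcription factor Atf4. Atf4 raises genes of amino acid synthesis, amino acid uptake and tRNA charging, a programme called the integrated stress response. The series' title names Slc7a3, a carrier of arginine and other cationic amino acids, as a gene raised by p53 without glutamine.

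The lines differed widely. With limma on log2(RPKM + 1) and a Benjamini-Hochberg adjusted p under 0.05, 5673 genes (51.9% of those tested) were higher in the p53-null line and 4368 (39.9%) were lower. The median difference of all genes was 0.11 on the log2 scale. These shares and this median are the background for every list count below. At least 2-fold differences on that scale were fewer, with 1222 genes (11.2%) higher and 900 (8.23%) lower. The 3 values of one line lay wholly above those of the other for 10055 genes (92%), so separation of the libraries alone says little about any single gene. Only p53-null libraries reached 1 RPKM for 609 tested genes and only wildtype libraries for 462, so the filter fixed their direction. This holds for each tested gene below with all glutamine-free values of 1 line under 1 RPKM. Its p-value is no support for the direction. Within a group the libraries correlated at 0.999 across genes. Rescaling each library to one sum of RPKM moved the median of all genes to 0.24 and the 2-fold counts to 1547 and 726, and centring each library on its median moved them to -0.03, 935 and 1168. Quantile normalization gave 978 and 1036. The libraries summed to 284426 to 288184 RPKM in the p53-null line and to 315328 to 319735 in the wildtype line, and read depth is unknown. The lines also differed in Hox, imprinted and mesothelial genes and in the median of whole chromosomes, and the part of these differences in the results was not tested.

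Trp53, the gene of p53 (chr11:69580359-69591873, plus strand of mm10), gave 33.9, 34.6 and 35.2 RPKM in the p53-null libraries and 109, 112 and 114 RPKM in the wildtype libraries. No p53-null value came near a wildtype value, but reads were assigned to Trp53 in every p53-null library. The wildtype level was 3.23-fold higher, a log2 difference (p53-null minus wildtype, as throughout) of -1.66 ± 0.02 (SE, limma, adjusted p = 1.83e-11). An exact two-sided permutation test over the 6 libraries gave p = 0.1, the smallest that 3 against 3 allows. In complete medium the difference was -0.998. Which exons the null allele lacks is not given in the sources used here, and one value per gene cannot show it. Mdm2, the ligase and p53 target, gave 17.9, 18.3 and 18.7 RPKM in the p53-null libraries and 12.8, 12.3 and 12.4 RPKM in the wildtype libraries. It was higher in the line without p53, by 0.52 on the log2 scale (adjusted p = 8.65e-08).

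Of 18 tested genes of the p53 locus and its regulators, 8 were higher and 9 lower, with a median of 0.00, which was negative after quantile normalization (-0.10), median centring (-0.13) and centring within chromosomes (-0.08). Cdkn2a, whose locus encodes Ink4a and the Mdm2 inhibitor Arf, stood at 51.6 ± 1.43 against 39.98 ± 1.71 RPKM (mean ± SD, n = 3, p53-null first here and below), higher by 0.36. It lies on chromosome 4, where most genes were lower, and centred on its chromosome's median the difference was 0.78. In complete medium Cdkn2a was lower in the p53-null line, with a difference of -0.38. The Ink4 inhibitor Cdkn2c gave 5.63 ± 0.352 against 21 ± 0.452 RPKM, a difference of -1.73. Trp53bp1, a DNA damage adaptor, was higher at 11.8 ± 0.302 against 4.54 ± 0.0729 RPKM, and the acetyltransferase gene Kat5 was lower at 9.48 ± 0.127 against 19.4 ± 0.601 RPKM.

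Targets of p53 in arrest, repair and feedback did not move one way. Of 23 tested, 14 were higher in the p53-null line and 8 lower, and the median was 0.33, above the 0.11 of all genes. Cdkn1a, the gene of the CDK inhibitor p21 (chr17:29090976-29100727, plus strand), gave 1.72, 1.77 and 2.03 RPKM in the p53-null libraries and 16.3, 15.9 and 16 RPKM in the wildtype libraries, 8.71-fold higher in the wildtype line. Every wildtype library lay far above every p53-null library, and the log2 difference was -2.59 ± 0.04 (adjusted p = 9.02e-11; exact permutation p = 0.1). In complete medium Cdkn1a stood at 0.973 ± 0.242 against 2.62 ± 0.328 RPKM, a smaller difference of -0.88, and the change of the difference with medium was -1.71 (limma, 12 libraries, adjusted p = 1.23e-08).

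Gadd45a, a growth arrest gene driven by p53 and by Atf4, gave 79, 77.3 and 79.8 RPKM in the p53-null libraries and 254, 251 and 252 RPKM in the wildtype libraries. This separation belonged to glutamine-free medium, since complete medium gave 18.4 ± 0.934 against 17.8 ± 1.26 RPKM and a difference of 0.05 that was not called, and the change with medium was -1.71 (adjusted p = 1.21e-11). Ddit4, an inhibitor of mTORC1, gave 4.57, 4.32 and 4.12 RPKM in the p53-null libraries and 42.9, 40.4 and 40.9 RPKM in the wildtype libraries. The wildtype line held about 9.54 times the p53-null level, and the difference in complete medium was nearly as large (-2.99 without glutamine, -2.59 with it). Zfp365, a p53 target in genome stability, went the other way with 7.69, 7.44 and 7.58 RPKM in the p53-null libraries and 1.69, 1.81 and 1.8 RPKM in the wildtype libraries. It was higher in the line without p53 by 1.63 (adjusted p = 2.33e-10).

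Targets in cell death and metabolism were split, with 10 higher and 11 lower of 21 and a median of -0.06, which turned to 0.08 when each library was rescaled to one sum. Of the 14 that reached 1 RPKM in both lines 7 were higher and 7 lower. Another 4, Fas and Eda2r among them, reached it in the wildtype line alone and 3 in the p53-null line alone. The filter fixed their direction, so they are given as levels. The death receptor gene Fas gave 0.345, 0.422 and 0.282 RPKM in the p53-null libraries and 7.45, 7.67 and 7.78 RPKM in the wildtype libraries, a difference of -2.68. Eda2r, a receptor of the TNF receptor family, stood at 0.0311 ± 0.0062 against 3.93 ± 0.099 RPKM, with -1.30 in complete medium against -2.26 without glutamine. Tnfrsf10b, the receptor of the ligand TRAIL, named after its values were seen, was higher at 11.7 ± 0.111 against 7.95 ± 0.198 RPKM (0.51). The metabolic targets named next reached 1 RPKM in 1 line alone, so the filter fixed their direction too. Gls2, the liver-type glutaminase that turns glutamine into glutamate, gave 3.91, 3.88 and 4.01 RPKM in the p53-null libraries and 0.452, 0.422 and 0.532 RPKM in the wildtype libraries, 8.4-fold higher in the p53-null line. Cpt1c, a neuronal carnitine palmitoyltransferase, gave 3.51 ± 0.161 against 0.169 ± 0.0252 RPKM. Both were higher in the p53-null line in complete medium as well, by 1.89 and 2.14. Lpin1, a phosphatidate phosphatase named after its values were seen, was lower at 0.826 ± 0.0522 against 2.38 ± 0.0109 RPKM (-0.89).

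The p53 half-site, searched on both strands with no mismatch allowed, was found between 250 bases before and 50 after the gene start in 8 of 18 arrest genes and 4 of 19 death and metabolism genes with a RefSeq GRCm38.p6 window. That is 44.4% and 21.1%, beside 7.84% of the 8485 tested genes with a window and 8.36% of all 32851 windows. Both called directions are among the holders. Cdkn1a, lower in the p53-null line, holds the half-site, and so does Ccng1, chosen from the holders after its values were seen, which was higher at 22.4 ± 0.205 against 8.05 ± 0.248 RPKM. A match describes the letters of the window and does not show binding.

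**Figure D1:**
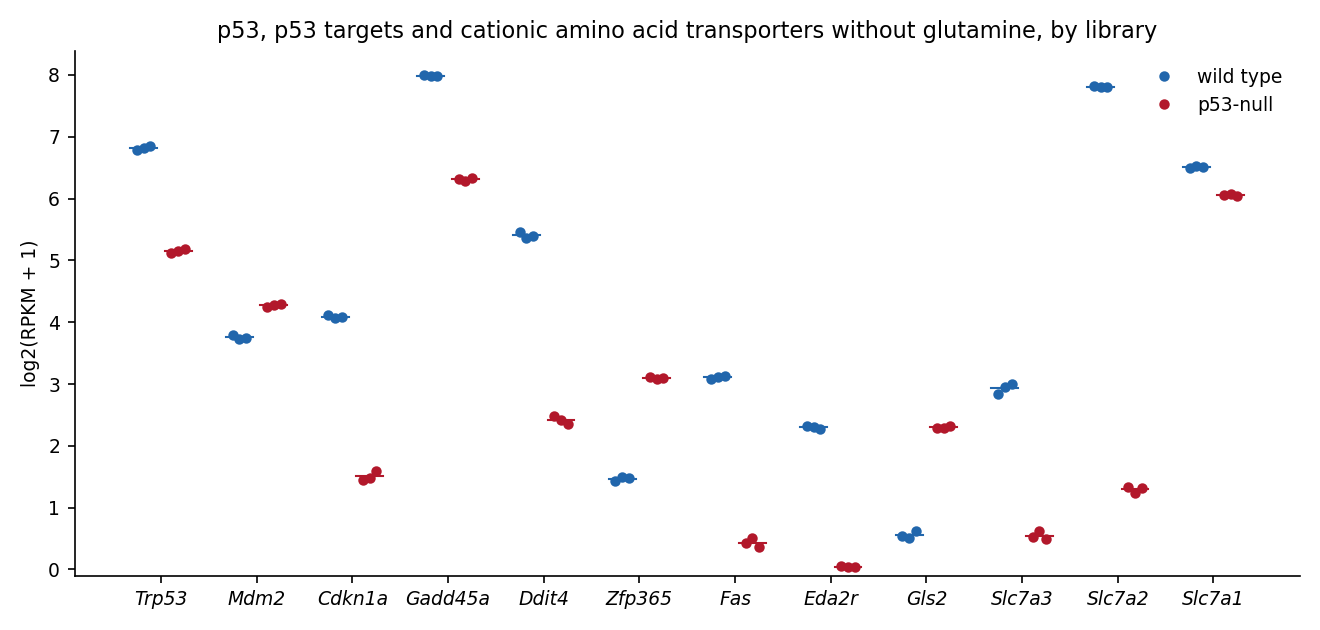
Expression without glutamine of Trp53, 8 genes of the p53 network and 3 cationic amino acid transporters on the log2(RPKM + 1) scale. Each point is 1 library, red for p53-null and blue for wildtype, and each line is the mean of 3 libraries. Trp53, Cdkn1a, Gadd45a, Ddit4, Fas, Eda2r and the 3 transporters sit lower in the p53-null line, and Mdm2, Zfp365 and Gls2 sit higher.

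Slc7a3 (chrX:101079210-101086020, minus strand), the carrier that the title names, was nearly absent from the p53-null line without glutamine. It gave 0.432, 0.541 and 0.402 RPKM in the p53-null libraries and 6.19, 6.7 and 7.01 RPKM in the wildtype libraries. The lowest wildtype library held more than any p53-null library, the ratio of means was 14.5, and the difference was -2.39 ± 0.05 (adjusted p = 4.27e-10; exact permutation p = 0.1). Without glutamine Slc7a3 reached 1 RPKM in the wildtype line alone, so the filter fixed this direction and these p-values do not support it. In complete medium the order was reversed, at 1.06 ± 0.14 against 0.262 ± 0.0676 RPKM and a difference of 0.71. The change of the difference with medium was -3.09 (adjusted p = 1.45e-12).

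Other carriers of arginine and lysine were far more abundant in RPKM than Slc7a3 in the wildtype line. Slc7a2, a cationic carrier of liver and activated macrophages, gave 1.52, 1.37 and 1.48 RPKM in the p53-null libraries and 226, 223 and 223 RPKM in the wildtype libraries. This was the largest difference in the 2 transporter lists, -6.52 without glutamine and -5.64 with it, so that the line without p53 had little Slc7a2 transcript in either medium. Slc7a1, the ubiquitous cationic carrier, gave 66, 66.1 and 65 RPKM in the p53-null libraries and 89, 90.8 and 90.6 RPKM in the wildtype libraries. Its difference of -0.45 turned from 0.92 in complete medium, a change of -1.37 (adjusted p = 7.38e-15). Slc7a6, an exchanger of cationic for neutral amino acids, was lower at 31.1 ± 0.428 against 43.2 ± 0.839 RPKM. Of 7 tested genes of the list 0 were higher and 4 lower (2 of them 2-fold), with a median of -0.45. Rescaling to one sum called 2 higher. Slc7a3 passed through the wildtype line alone, and of the 6 at 1 RPKM in both lines 0 were higher and 3 lower.

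Of 12 tested enzymes of arginine and polyamine metabolism 6 were higher and 6 lower, 9 of them 2-fold. For 2 of the 12, Ass1 among them, only wildtype libraries reached 1 RPKM, so the filter fixed their direction. Of the 10 at 1 RPKM in both lines 6 were higher and 4 lower. Ass1 and Asl make arginine from citrulline in consecutive steps. Ass1 stood at 0.208 ± 0.138 against 2.41 ± 0.279 RPKM (-1.50), and Asl stood at 9.64 ± 0.541 against 2.57 ± 0.275 RPKM and was higher (1.58). Smox, the spermine oxidase, was higher at 13.1 ± 0.439 against 1.58 ± 0.0669 RPKM, as was Ddah2, which clears methylarginines that inhibit nitric oxide synthesis, at 18.8 ± 0.58 against 3.34 ± 0.327 RPKM.

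The integrated stress response genes were lower in the p53-null line almost throughout. Of 34 tested, 2 were higher and 32 lower (11 of them 2-fold), with a median of -0.76 beside 0.11 for all genes. After quantile normalization 4 were higher and 28 lower. Among the 32 at 1 RPKM in both lines 2 were higher and 30 lower. In complete medium the same list had a median of 0.56. The change of the difference with medium was called negative for 33 of 34 and positive for 0, where 39.4% and 45.4% of all tested genes were called negative and positive.

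Atf4 binds composite elements next to the gene start, and the letters TGATGNAA, its usual amino acid response element, were searched on both strands of the RefSeq GRCm38.p6 windows. They were found in 10 of 30 genes of the list with a window (33.3%), in 2.55% of the 8485 tested genes and in 3.97% of all windows. The other holders differed by less than 2-fold, such as Trib3 (-0.21), and Chac1 among them was higher (0.18). A match does not show binding. The 3 holders with the most negative line difference, each 2-fold lower, are shown. Capitals mark the element, read on the strand shown or as its reverse complement.
Slc7a11 promoter (chr3:50443564-50443863, minus strand): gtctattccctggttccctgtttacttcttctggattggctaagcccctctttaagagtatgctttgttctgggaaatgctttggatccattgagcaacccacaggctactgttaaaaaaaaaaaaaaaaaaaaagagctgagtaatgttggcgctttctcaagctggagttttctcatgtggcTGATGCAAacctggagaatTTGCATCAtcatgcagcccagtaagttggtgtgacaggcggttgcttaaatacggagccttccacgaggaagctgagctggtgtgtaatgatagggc
Pycr1 promoter (chr11:120643699-120643998, minus strand): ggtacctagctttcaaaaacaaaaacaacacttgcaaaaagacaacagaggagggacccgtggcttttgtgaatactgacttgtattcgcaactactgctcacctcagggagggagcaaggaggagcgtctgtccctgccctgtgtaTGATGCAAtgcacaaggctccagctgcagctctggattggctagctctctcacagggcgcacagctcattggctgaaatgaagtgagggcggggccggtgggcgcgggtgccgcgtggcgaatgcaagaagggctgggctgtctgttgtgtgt
Herpud1 promoter (chr8:94386179-94386478, plus strand): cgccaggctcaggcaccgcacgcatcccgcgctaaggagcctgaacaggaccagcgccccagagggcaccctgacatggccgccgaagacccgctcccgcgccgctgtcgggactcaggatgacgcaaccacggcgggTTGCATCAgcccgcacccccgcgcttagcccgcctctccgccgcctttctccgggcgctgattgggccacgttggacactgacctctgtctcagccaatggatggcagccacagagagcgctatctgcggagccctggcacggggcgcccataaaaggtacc
The Slc7a11 window has 2 matches, starting at -66 and -47 from the gene start, the Pycr1 window 1 at -103 and the Herpud1 window 1 at -112.

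Slc7a11, the cystine importer that feeds glutathione synthesis, gave 6.85, 6.31 and 6.56 RPKM in the p53-null libraries and 39, 37.9 and 37 RPKM in the wildtype libraries. Its difference of -2.36 (adjusted p = 2.81e-11) compares with -0.30 in complete medium. Pycr1, which makes proline, stood at 11.3 ± 0.351 against 38 ± 0.595 RPKM and changed sides with medium, from 0.50 to -1.66. Herpud1, a gene of endoplasmic reticulum degradation picked by its promoter, gave 30.4 ± 0.56 against 91.5 ± 0.84 RPKM and a difference of -1.56. Cth, which makes cysteine from cystathionine, had the largest difference of the list on the log2(RPKM + 1) scale, with 4.22, 5.09 and 4.61 RPKM in the p53-null libraries and 107, 106 and 107 RPKM in the wildtype libraries. The wildtype line held about 23 times the p53-null level, and complete medium gave 3.42 ± 0.0419 against 9.5 ± 0.185 RPKM. Stc2, a secreted stress glycoprotein, was lower at 0.122 ± 0.0249 against 5.51 ± 0.194 RPKM.

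Atf4 itself and some of its best-known targets had smaller differences. Atf4, which like Asns is named for its role after its values were seen, gave 270.3 ± 4.85 against 386 ± 6.05 RPKM, a difference of -0.51, while complete medium gave 206 ± 3.03 against 119 ± 1.46, a difference of 0.79. Asns, the asparagine synthetase gene and a standard Atf4 target, stood at 238 ± 1.63 against 285 ± 3.15 RPKM (-0.26, but 0.06 after quantile normalization). Trib3, a pseudokinase that feeds back on Atf4, stood at 95.3 ± 0.552 against 110.1 ± 2.44 RPKM, with a difference of -0.21 that was 0.02 after quantile normalization. The 2 genes of the list that were higher were Chac1, a glutathione-degrading enzyme, at 53.4 ± 0.745 against 47 ± 0.786 RPKM, and Psph, the last enzyme of serine synthesis, at 86.6 ± 0.655 against 49.5 ± 1.23 RPKM. Both lie on chromosomes whose median was above that of all genes, and centred within them Chac1 stood at -0.42 and Psph stood at 0.43.

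Genes of the sensing arm showed no common direction, with 5 higher and 4 lower of 10 and a median of 0.23, which was -0.02 after centring within chromosomes. Eif2ak4, the gene of the Gcn2 kinase, stood at 16.8 ± 0.532 against 5.85 ± 0.0869 RPKM (1.38), and Gcn1l1, its ribosome-bound activator, at 39.8 ± 0.304 against 23.3 ± 0.798 RPKM (0.75). Eif2ak2, the kinase of double-stranded RNA, gave 17.5 ± 0.34 against 8.59 ± 0.118 RPKM (0.95). Impact, an imprinted gene whose product restrains Gcn2, gave 27.9, 27.7 and 28.5 RPKM in the p53-null libraries and 2.43, 2.54 and 2.45 RPKM in the wildtype libraries. It was higher by 3.06 without glutamine and 4.03 with it.

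Genes that charge tRNA and import neutral and acidic amino acids were mostly lower. Of 20 cytosolic aminoacyl-tRNA synthetase genes 7 were higher and 13 lower, with a median of -0.33, where complete medium had 0.55. Yars, for tyrosine, stood at 54.7 ± 0.815 against 143 ± 2.63 RPKM, Aars, for alanine, at 148 ± 1.16 against 356 ± 0.632, Iars, for isoleucine, at 81.7 ± 1.28 against 183 ± 0.593, and Farsb, for phenylalanine, at 39.4 ± 0.0691 against 81.3 ± 2.01. Of 15 neutral and acidic transporters 3 were higher and 11 lower, with a median of -0.77 against 0.33 in complete medium. The 12 at 1 RPKM in both lines included 2 higher and 9 lower. Slc6a9, a glycine carrier, gave 28.8 ± 0.364 against 124 ± 2.74 RPKM, but 30.2% of its exon length lies under a gene on the other strand, whose reads this unstranded library cannot separate. Slc1a3, a glutamate carrier, gave 0.0521 ± 0.0107 against 2.92 ± 0.167 RPKM. Slc6a15, a carrier of branched-chain amino acids and proline, was listed at 0 in the p53-null line and at 12.1 ± 0.203 RPKM in the wildtype line.

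Enzymes of glutamine, glutamate and proline included 8 higher and 17 lower of 26, with a median of -0.39. Of the 24 at 1 RPKM in both lines 7 were higher and 16 lower. Glul, which makes glutamine from glutamate, gave 2.07, 2.22 and 2.1 RPKM in the p53-null libraries and 10.1, 10.9 and 10.6 RPKM in the wildtype libraries. The groups lay far apart, with a difference of -1.88 without glutamine (adjusted p = 2.07e-10) and -3.13 with it. Prodh, the first enzyme of proline breakdown and a known p53 target, was lower at 0.331 ± 0.0188 against 3.7 ± 0.153 RPKM. Of 16 serine and one-carbon genes 5 were higher and 10 lower, with a median of -0.19 against 0.64 in complete medium. Aldh1l2, a mitochondrial folate enzyme, stood at 47.6 ± 0.702 against 105 ± 1.49 RPKM without glutamine and at 46.9 ± 1.18 against 16.2 ± 0.186 RPKM with it, so its order reversed. Mtr, the methionine synthase gene, gave 11.6 ± 0.214 against 23.4 ± 0.215 RPKM.

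Sestrins and other brakes on mTORC1, the kinase complex that couples amino acids to growth, showed no common direction. Of 18 tested 8 were higher and 8 lower, with a median of -0.05 that became 0.08 with one sum per library. Gatsl3 and Gatsl2, genes of the Castor family to which the arginine sensor of mTORC1 belongs, were higher at 4.41 ± 0.359 against 1.08 ± 0.0788 and 4.47 ± 0.0278 against 1.43 ± 0.128 RPKM. Deptor, an inhibitory subunit of mTOR complexes, was higher at 6.67 ± 0.216 against 2.003 ± 0.142 RPKM.

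**Figure D2:**
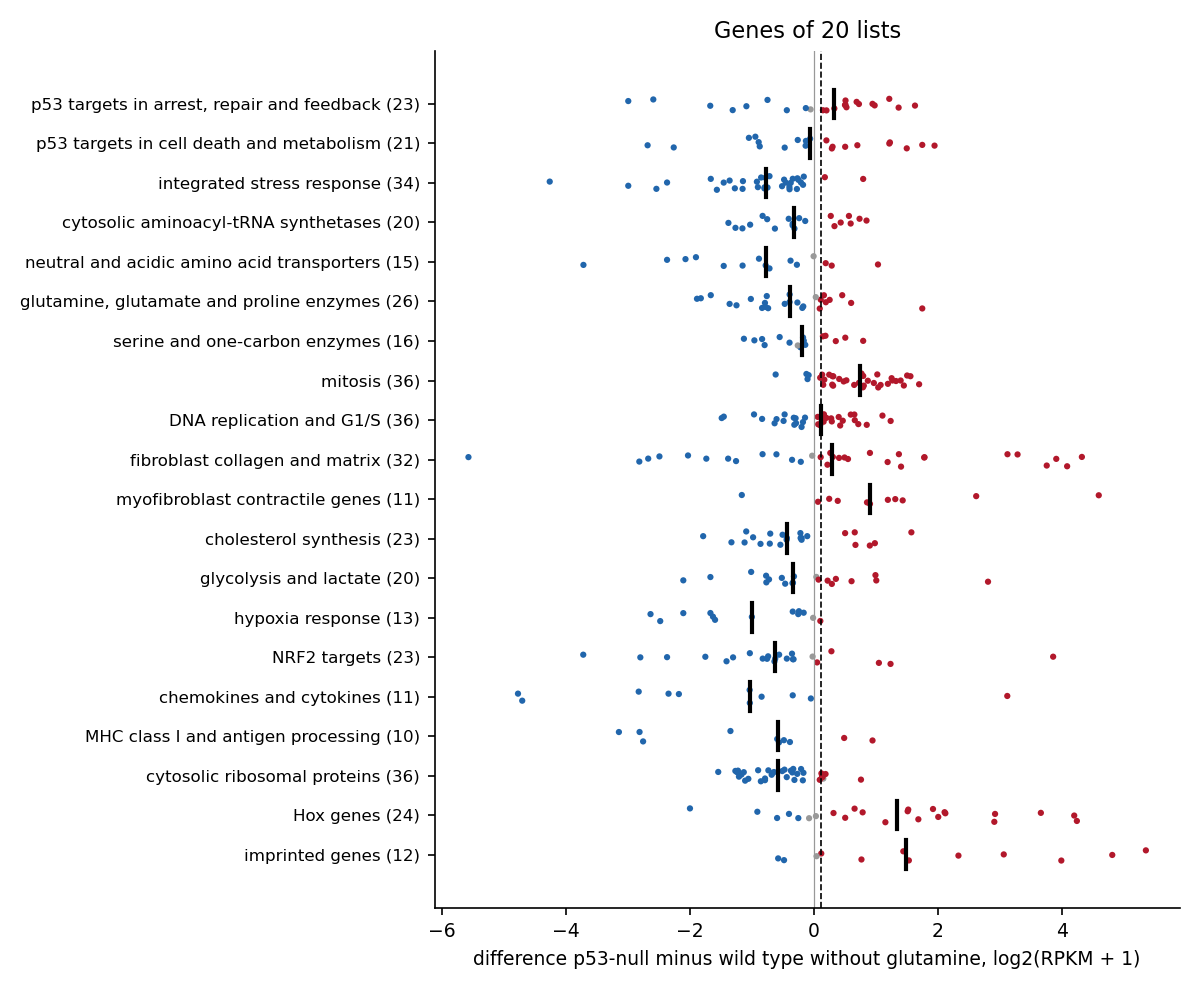
Line difference without glutamine (p53-null minus wildtype, log2(RPKM + 1) scale) of the tested genes of 20 lists. Each point is 1 gene, red where called higher, blue where called lower and grey where not called, the black bar is the list's median and the dashed line the median of all genes, 0.11. The integrated stress response has its median at -0.76 and mitosis at 0.75.

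Genes of mitosis were mostly higher in the p53-null line. Of 36 tested, 32 were higher (12 of them 2-fold) and 4 lower, with a median of 0.75, and centring within chromosomes left 30 higher and 4 lower with a median of 0.49 and 3 genes at 2-fold. In complete medium the median was -0.34. The change of the difference with medium was called positive for 35 of 36 and negative for 0. These genes peak in G2 and M phase, and the samples are whole cultures in which more cells in division and more transcript per cell cannot be told apart.

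Promoters of late cell cycle genes carry the cell cycle homology region, and its letters TTTGAA were searched on both strands. They were present in 21 of 29 mitosis genes with a window (72.4%), in 13.7% of the 8485 tested genes and in 17.9% of all windows. Both directions are among the holders, which include the lower genes Cdc20 (-0.61), Bub3 (-0.12), Ttk (-0.10) and Cdca8 (-0.08). The 3 holders with the largest positive line difference are shown, with the element in capitals.
Cenpf promoter (chr1:189688037-189688336, minus strand): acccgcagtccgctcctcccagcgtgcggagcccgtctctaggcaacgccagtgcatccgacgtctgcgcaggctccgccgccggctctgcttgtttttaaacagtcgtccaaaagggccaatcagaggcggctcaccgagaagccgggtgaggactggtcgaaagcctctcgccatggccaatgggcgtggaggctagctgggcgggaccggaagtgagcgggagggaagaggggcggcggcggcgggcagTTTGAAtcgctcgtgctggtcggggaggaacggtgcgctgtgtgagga
Aurka promoter (chr2:172370521-172370820, minus strand): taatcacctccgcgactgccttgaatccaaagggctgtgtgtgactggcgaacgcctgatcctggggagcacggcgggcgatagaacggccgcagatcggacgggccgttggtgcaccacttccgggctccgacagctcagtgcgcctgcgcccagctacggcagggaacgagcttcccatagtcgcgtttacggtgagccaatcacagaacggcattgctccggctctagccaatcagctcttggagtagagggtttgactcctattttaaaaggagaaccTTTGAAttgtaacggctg
Cenpa promoter (chr5:30666636-30666935, plus strand): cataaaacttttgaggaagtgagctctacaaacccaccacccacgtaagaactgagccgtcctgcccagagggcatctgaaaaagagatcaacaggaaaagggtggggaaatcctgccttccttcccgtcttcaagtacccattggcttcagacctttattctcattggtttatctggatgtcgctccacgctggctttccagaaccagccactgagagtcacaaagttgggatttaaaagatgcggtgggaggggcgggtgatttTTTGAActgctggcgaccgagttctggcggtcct
The matches start 2, 32 and 16 bases from the gene start, in that order.

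Bub1, a kinase of the spindle checkpoint, gave 39.96, 40.4 and 41.5 RPKM in the p53-null libraries and 11.9, 12 and 11.5 RPKM in the wildtype libraries. It was higher by 1.70, and by 1.10 after centring on chromosome 2, where it lies. Aurka, the spindle pole kinase on the same chromosome, gave 35, 35.2 and 34.9 RPKM in the p53-null libraries and 11.5, 11.7 and 11.9 RPKM in the wildtype libraries. It was 2.996-fold higher, with a difference of 1.51 and 0.91 after centring. Cenpf, a kinetochore gene on chromosome 1, stood at 9.67 ± 0.196 against 2.62 ± 0.0769 RPKM and reversed from complete medium, where it was at 14.4 ± 0.349 against 22.5 ± 0.367 RPKM. Cdc25c, the phosphatase that activates the mitotic kinase, stood at 13.5 ± 0.625 against 4.3 ± 0.288 RPKM, and Cenpa, the centromeric histone gene picked by its promoter, at 19.1 ± 0.436 against 7.02 ± 0.227 RPKM. The 4 lower genes were Cdc20 at 13.1 ± 0.182 against 20.6 ± 0.477 RPKM, Bub3 at 25.4 ± 0.536 against 27.7 ± 0.279, Ttk at 12.1 ± 0.0529 against 13 ± 0.326 and Cdca8 at 34.5 ± 0.802 against 36.6 ± 0.979, but with one sum per library Bub3 (0.03), Ttk (0.04) and Cdca8 (0.06) were no longer below 0.

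DNA replication and G1/S genes stood near the median of all genes, with 21 higher and 15 lower of 36 and a median of 0.12, which was -0.02 after median centring and -0.07 after centring within chromosomes. E2f2, an activator of S phase genes, was lower at 3.57 ± 0.0921 against 11.8 ± 0.229 RPKM, as was Ccne2, the cyclin E2 gene, at 9.86 ± 0.32 against 28.7 ± 1.66 RPKM. Gins1, a subunit of the replicative helicase, was higher at 25.4 ± 0.767 against 11.3 ± 0.817 RPKM. Gins2, another subunit, was higher at 34.5 ± 0.787 against 14 ± 0.0589 RPKM, though 67.3% of its exon length lies under a gene on the other strand. Of 18 D cyclin, pocket protein and Kip inhibitor genes 10 were higher and 6 lower, with a median of 0.21 that became -0.03 after centring within chromosomes. Ccnd1, the cyclin D1 gene, was higher at 116 ± 0.995 against 37.6 ± 0.27 RPKM, with 23.4% of its exons under an opposite gene. Myc, the growth regulator, was lower at 113 ± 1.11 against 344 ± 2.32 RPKM (-1.60). Lin54, a subunit of the complex that binds the cell cycle homology region, was higher at 19.2 ± 0.517 against 9.72 ± 0.28 RPKM, and the pocket protein partner E2f4 was lower at 34.6 ± 1.82 against 66.3 ± 1.99.

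Matrix genes differed strongly in both directions. Of 32 tested 19 were higher and 12 lower, and 19 of them passed 2-fold (11 higher, 8 lower). Among the 26 at 1 RPKM in both lines 17 were higher and 8 lower. Col1a1, the main chain of type I collagen, gave 101, 105 and 103 RPKM in the p53-null libraries and 10.6, 10.9 and 11.4 RPKM in the wildtype libraries. It was 9.41-fold higher in the p53-null line. Yet complete medium gave 168 ± 3.26 against 240.2 ± 2.12 RPKM and the opposite order, a change of 3.63 (limma, adjusted p = 2.18e-16). Its partner chain gene Col1a2, named after its values were seen, went the other way without glutamine, at 12.9 ± 0.294 against 87.4 ± 1.63 RPKM (-2.67). The basement membrane collagen genes Col4a1 and Col4a2, which share a promoter region, were both higher, at 46.5 ± 0.341 against 1.37 ± 0.00376 and 32.9 ± 0.359 against 1.26 ± 0.0662 RPKM. Fbln2, an elastic fibre protein gene, was higher at 304 ± 1.85 against 17 ± 0.5005 RPKM, and Dcn, the small proteoglycan decorin, was lower with 3.37, 3.4 and 4.03 RPKM in the p53-null libraries and 219.6, 214 and 215 RPKM in the wildtype libraries. Dcn lay far below in all 3 p53-null libraries.

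Contractile and related genes of the myofibroblast list were higher for 10 of 11 (5 of them 2-fold), with a median of 0.91 against -0.24 in complete medium. The 10 at 1 RPKM in both lines included 9 higher and 1 lower. Ctgf, a secreted target of the YAP pathway, gave 37.8, 38.3 and 37.7 RPKM in the p53-null libraries and 0.607, 0.651 and 0.579 RPKM in the wildtype libraries. Cnn2, an actin-binding calponin, stood at 38 ± 1.12 against 5.35 ± 0.0998 RPKM and Acta2, smooth muscle actin, at 11.7 ± 0.417 against 3.71 ± 0.148 RPKM. Cyr61, a further YAP target, was higher at 59.7 ± 2.02 against 23.4 ± 0.575 RPKM without glutamine and lower at 40.8 ± 0.71 against 117 ± 0.943 RPKM with it.

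Lists of sterol and sugar metabolism had negative medians in both media. Cholesterol synthesis genes counted 6 higher and 17 lower of 23, with a median of -0.43, and complete medium had -1.84. The change with medium was called positive for all 23. Hmgcs1, at the entry to the pathway, stood at 11 ± 0.317 against 25 ± 1.06 RPKM without glutamine and 20.8 ± 0.803 against 158 ± 2.33 RPKM with it. Idi1, an isomerase of isoprenoid units, was lower at 6.47 ± 0.246 against 24.7 ± 1.14 RPKM, as was the master regulator Srebf2 at 15.8 ± 0.359 against 41.2 ± 1.38 RPKM, while Ebp, a late sterol isomerase, was higher at 17.3 ± 0.307 against 5.15 ± 0.379 RPKM. Fatty acid genes had 4 higher and 7 lower of 12 and a median of -0.07, which became 0.08 with one sum per library. Elovl1, an elongase, was lower at 16.9 ± 0.406 against 35.1 ± 0.962 RPKM, and Srebf1 and Fads2 were higher at 9.04 ± 0.119 against 4.53 ± 0.214 and 31.1 ± 1.23 against 17.5 ± 0.652 RPKM.

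Glycolysis genes had 8 higher and 11 lower of 20, with a median of -0.33 against -0.81 in complete medium. The 2 lactate dehydrogenase subunits differed in opposite directions. Ldha stood at 121 ± 1.19 against 244 ± 3.47 RPKM and was lower (-1.01), and Ldhb stood at 24.4 ± 0.622 against 2.63 ± 0.277 RPKM and was higher (2.81). Slc2a1, the glucose carrier GLUT1, gave 11.3 ± 0.246 against 38 ± 0.584 RPKM, and Pdk1, which blocks pyruvate entry into mitochondria, gave 3.77 ± 0.178 against 19.5 ± 0.435 RPKM. Tricarboxylic acid cycle genes were balanced at 12 higher and 12 lower of 25, with a median of 0.02, which was -0.12 after median centring and -0.02 after centring within chromosomes. Pcx, pyruvate carboxylase, which refills the cycle without glutamine carbon, was lower at 1.68 ± 0.0892 against 8.3 ± 0.354 RPKM, and Pck2, mitochondrial phosphoenolpyruvate carboxykinase, was lower at 29.9 ± 0.32 against 59 ± 1.33 RPKM and stood at 55.8 ± 1.16 against 43.9 ± 0.274 RPKM in complete medium. Of 25 nucleotide synthesis genes 9 were higher and 13 lower, and the median of -0.13 became 0.02 with one sum per library. Ctps, which uses glutamine to make CTP, was lower at 54.6 ± 0.296 against 111 ± 0.368 RPKM, as was Cmpk1, a pyrimidine kinase, at 10.03 ± 0.13 against 31 ± 1.16 RPKM.

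NRF2 drives antioxidant genes, and its targets were higher for 5 and lower for 17 of 23, with a median of -0.62. Among the 21 at 1 RPKM in both lines 3 were higher and 17 lower. Nqo1, a quinone reductase, gave 1.5, 1.67 and 1.81 RPKM in the p53-null libraries and 32.8, 34 and 34.9 RPKM in the wildtype libraries, a difference of -3.72 and -2.43 in complete medium. Fth1, the ferritin heavy chain, gave 388 ± 4.08 against 2699 ± 29.9 RPKM, though near-identical copies make its count uncertain. Gsta4, a glutathione transferase, was higher at 18 ± 0.549 against 0.315 ± 0.145 RPKM. Hypoxia response genes were lower for 11 and higher for 1 of 13, with a median of -0.997 (0 to 2 higher under the other scalings). Ankrd37 passed through the wildtype line alone, and of the 12 at 1 RPKM in both lines 10 were lower and 1 higher. Ndrg1 stood at 26.4 ± 0.477 against 151 ± 1.83 RPKM, and Ankrd37 at 0.372 ± 0.16 against 7.46 ± 0.29 RPKM, with 26.4% of its exons under an opposite gene.

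Immediate early genes, the first response to growth factor and stress signals, had 7 higher and 9 lower of 18, with a median of -0.09 that became 0.05 with one sum per library. The AP-1 gene Junb was lower at 21 ± 0.0465 against 105 ± 1.84 RPKM, as were Ier3 at 27.1 ± 0.574 against 114 ± 1.11 and Klf4 at 14.1 ± 0.206 against 60.4 ± 0.394, whereas Dusp6, the phosphatase that restrains ERK, was higher at 29.98 ± 0.763 against 3.59 ± 0.238 RPKM. Endoplasmic reticulum chaperones had 11 higher and 6 lower of 20, with Pdia3, a disulfide isomerase, at 279 ± 2.91 against 124 ± 1.48 RPKM and Creld2 at 24.9 ± 1.5 against 10.9 ± 0.475. Autophagy and lysosome genes had 14 higher and 9 lower of 24. Like the endoplasmic reticulum count, this stands beside 51.9% higher and 39.9% lower among all tested genes. Map1lc3a, an LC3 gene, was higher at 38 ± 0.97 against 14.5 ± 0.879 RPKM, as was the lysosomal protease gene Ctsd at 129.6 ± 0.964 against 55.8 ± 1.03. Ctsl, another lysosomal protease gene, was lower at 54.7 ± 0.628 against 136 ± 0.984 RPKM, as was Gabarapl1, of the same family as LC3, at 46.8 ± 0.758 against 102 ± 2.3, though 26.8% and 28.3% of their exon lengths lie under opposite genes.

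Ribosomal protein genes were lower for 29 and higher for 6 of 36, with a median of -0.57, but quantile normalization gave 18 lower and 14 higher and a median of -0.07. Processed copies of these genes can take or lend reads. Rpl13 stood at 364 ± 4.16 against 1061 ± 51.1 RPKM and Rps6 at 403 ± 4.42 against 953 ± 16.2 RPKM. Genes of ribosome assembly and RNA polymerase I were lower for 17 and higher for 3 of 22, with a median of -0.29 against 0.59 in complete medium, and the change with medium was called negative for all 22. Ncl, nucleolin, gave 118 ± 0.57 against 217 ± 5.9 RPKM without glutamine and 132 ± 0.811 against 89.7 ± 0.371 RPKM with it. Gar1 and Dkc1, of the particle that modifies ribosomal RNA, were lower at 27.8 ± 0.548 against 67.1 ± 2.89 and 44.3 ± 0.358 against 82.6 ± 2.72 RPKM, as was Wdr12, an assembly factor, at 18.9 ± 0.253 against 36.2 ± 0.712 RPKM.

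Chemokine and antigen presentation genes differed between the lines. Of 11 chemokine and cytokine genes tested, 6 reached 1 RPKM in the wildtype line alone, which fixed their direction, and of the other 5, 4 were lower in the p53-null line and 1 higher. Cxcl1, a neutrophil chemokine, gave 0.211, 0.225 and 0.233 RPKM in the p53-null libraries and 33.9, 31.3 and 31.8 RPKM in the wildtype libraries. Cxcl5 was listed at 0 in the p53-null line and at 25.1 ± 2.54 RPKM in the wildtype line, and Ccl5 was lower at 0.113 ± 0.0462 against 6.87 ± 0.194 RPKM. The gene that was higher, Cxcl12, the stromal chemokine, gave 67.3, 67.2 and 67.6 RPKM in the p53-null libraries and 6.88, 6.82 and 6.9 RPKM in the wildtype libraries. Of the 8 genes of MHC class I and antigen processing at 1 RPKM in both lines 6 were lower and 2 higher. H2-K1 stood at 3.95 ± 0.138 against 42.6 ± 0.764 RPKM and H2-D1 at 9.89 ± 0.0217 against 75.3 ± 0.944 RPKM, and their close similarity makes the split between them uncertain. Nlrc5, their transcriptional activator, reached 1 RPKM in the wildtype line alone, at 0.313 ± 0.027 against 2.33 ± 0.0383 RPKM. Of the 7 interferon response genes at 1 RPKM in both lines 6 were higher and 1 lower, and the median of all 11 tested was 0.20, or -0.02 after quantile normalization. For 2 of the 11 only wildtype libraries reached 1 RPKM and for 2 only p53-null libraries, so the filter fixed their direction. The former, Cxcl10 and Gbp2, stood at 0.144 ± 0.0206 against 4.19 ± 0.238 and 0.227 ± 0.0616 against 2.85 ± 0.185 RPKM. The latter, Stat2 and Xaf1, stood at 3.52 ± 0.137 against 0.79 ± 0.0553 and 2.56 ± 0.0173 against 0.0575 ± 0.0164 RPKM.

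Markers of cell and line identity also differed. Hox genes record the body position from which a cell derives, and 24 of 37 Hox genes in the table could be tested. For 12 of the 24 only p53-null libraries reached 1 RPKM and for 1 only wildtype libraries, so their direction follows from the filter and is given as levels. Of the 11 that reached 1 RPKM in both lines 5 were higher and 4 lower in the p53-null line. Hoxc6 gave 18.6, 18.3 and 18 RPKM in the p53-null libraries and 0.0333, 0.0322 and 0 RPKM in the wildtype libraries. Hoxb7 stood at 17.6 ± 0.402 against 0.0139 ± 0.0241 RPKM, Hoxb6 at 6.98 ± 0.644 against 0.0505 ± 0.0305 RPKM, and Hoxc8 at 11.7 ± 0.459 RPKM against a wildtype value listed at 0. These genes were on in the p53-null line and at or near 0 in the wildtype line, in both media. Hoxb2, the gene at 1 RPKM in the wildtype line alone, was lower at 0.35 ± 0.0981 against 4.38 ± 0.249 RPKM.

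**Figure D3:**
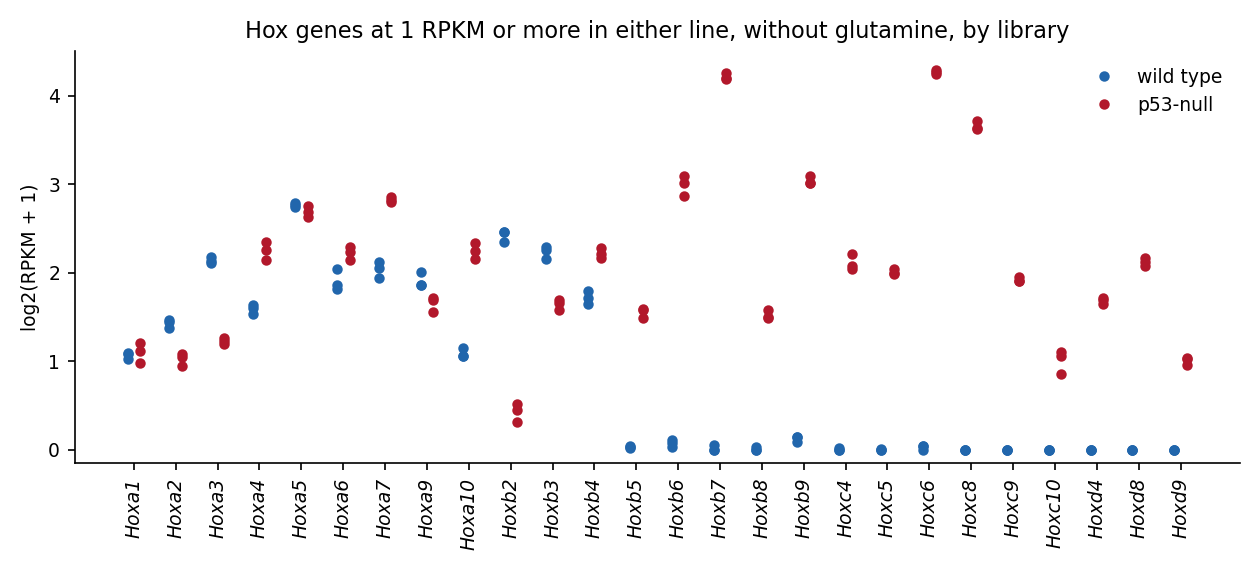
Expression without glutamine of the 26 Hox genes that reached 1 RPKM in either line, on the log2(RPKM + 1) scale, with 1 point per library in red for p53-null and blue for wildtype. Genes of the Hoxc and Hoxd clusters are at or near 0 in the wildtype libraries, and Hoxa genes are above 0 in both lines.

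Of 12 imprinted genes tested, 5 reached 1 RPKM in the p53-null line alone, which fixed their direction, and of the other 7, 4 were higher and 2 lower. Peg3, a zinc finger gene expressed from the paternal allele, gave 41.3, 41.7 and 40.8 RPKM in the p53-null libraries and 0.048, 0.0133 and 0.0413 RPKM in the wildtype libraries, and Grb10, a growth inhibitor, stood at 27.7 ± 0.524 against 0.0205 ± 0.0105 RPKM. Igf2, the fetal growth factor gene, gave 15.5 ± 0.874 against 0.0351 ± 0.0102 RPKM. All 5 epithelial and mesothelial markers that passed the filter did so through the p53-null line alone, so they are given as levels. Krt18, a simple epithelial keratin, gave 74, 75.8 and 76.6 RPKM in the p53-null libraries and 0, 0.0183 and 0.0163 RPKM in the wildtype libraries, and Msln, mesothelin, stood at 64.5 ± 1.05 against 0.731 ± 0.0724 RPKM. Wt1, a transcription factor of mesothelium and urogenital tissue, was at 4.96 ± 0.0788 RPKM and listed at 0 in the wildtype line, while Epcam and Cdh1, which define epithelial cells, were under 0.1 RPKM in both. The 11 genes of that list summed to 152.8 to 155.9 RPKM in the p53-null libraries and to 0.73 to 0.893 RPKM in the wildtype libraries.

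Fibroblast markers did not lie on one side, with 3 higher and 7 lower of 12. Vim, vimentin, was higher at 770.4 ± 13.4 against 72.3 ± 0.91 RPKM, S100a4 and the mesenchymal homeobox gene Prrx1 were lower at 5.39 ± 0.422 against 131 ± 2.27 and 1.32 ± 0.0673 against 17.5 ± 0.463 RPKM, and Thy1 and Fap were at or near 0 in both lines. Lpl, a lipase of fat cells, reached 1 RPKM in the p53-null line alone, at 21.9 ± 0.566 against 0.00218 ± 0.00378 RPKM. Other fat cell genes lay on both sides, with Pparg at 1.68 ± 0.0877 against 1.07 ± 0.103 and Cebpa at 0.137 ± 0.0211 against 2.08 ± 0.119 RPKM. Fabp4 was listed at 0 against 0.751 ± 0.249 RPKM, and Adipoq, Plin1 and Cd36 were at or near 0 in both lines. Spp1, osteopontin, was lower at 91.1 ± 1.18 against 938 ± 17.8 RPKM. The 9 blood cell markers summed to 4.29 to 4.82 RPKM in the p53-null libraries and 3.89 to 4.36 RPKM in the wildtype libraries. Ptprc, Laptm5 and Lyz2 were under 0.1 RPKM in both lines, and Hbb-bs, a beta globin, was listed at 0 against 2.28 ± 0.192 RPKM. On the other side Cd14 was higher at 2.31 ± 0.064 against 1.04 ± 0.075 RPKM. Cd68 reached 1 RPKM in the p53-null line alone, at 2.16 ± 0.236 against 0.823 ± 0.0511 RPKM. The 9 endothelial markers summed to 2.25 to 2.55 and 0.867 to 0.926 RPKM, with Pecam1 and Cdh5 under 0.1 RPKM in both lines. These sums mix members that differed in opposite directions. Kdr reached 1 RPKM in the p53-null line alone, at 1.26 ± 0.145 against 0.0155 ± 0.00622 RPKM. Eng and Vwf, not tested, stood at 0.84 ± 0.0807 against 0.215 ± 0.0164 and 0.0588 ± 0.0124 against 0.497 ± 0.0112 RPKM. Xist, the RNA of the inactive X chromosome, stood at 288 ± 3.45 against 288 ± 6.08 RPKM, and the Y-linked Ddx3y and Uty were listed at 0 in both lines. The equal Xist levels belonged to glutamine-free medium, since complete medium gave means of 267 against 128 RPKM, a difference of 1.05. Rn45s, the ribosomal RNA precursor, singled out after its values were seen, was at 2291 ± 387 against 3931 ± 144 RPKM.

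Whole chromosomes differed in median. Of the tested genes, 10897 could be placed on 20 chromosomes with 272 to 914 genes each. The median line difference ran from -0.51 on chromosome 4 (703 genes, 527 lower and 124 higher) to 0.61 on chromosome 2 (880 genes, 701 higher and 135 lower). Chromosome 18 stood at 0.47, chromosome 17 at 0.39, chromosome 13 at -0.46 and chromosome 8 at -0.40. The libraries of the 2 media are separate, and complete medium gave -0.56 on chromosome 4 and 0.59 on chromosome 2. The median change with medium lay between -0.05 and 0.10 on every chromosome. DNA copies were not measured. Centring each library within each chromosome, chosen after these medians were seen, left 774 genes 2-fold higher and 908 lower, and 46.2% of called genes higher where the deposited scale gave 56.5%. The medians of the integrated stress response (-0.81) and of mitosis (0.49) kept their signs.

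**Figure D4:**
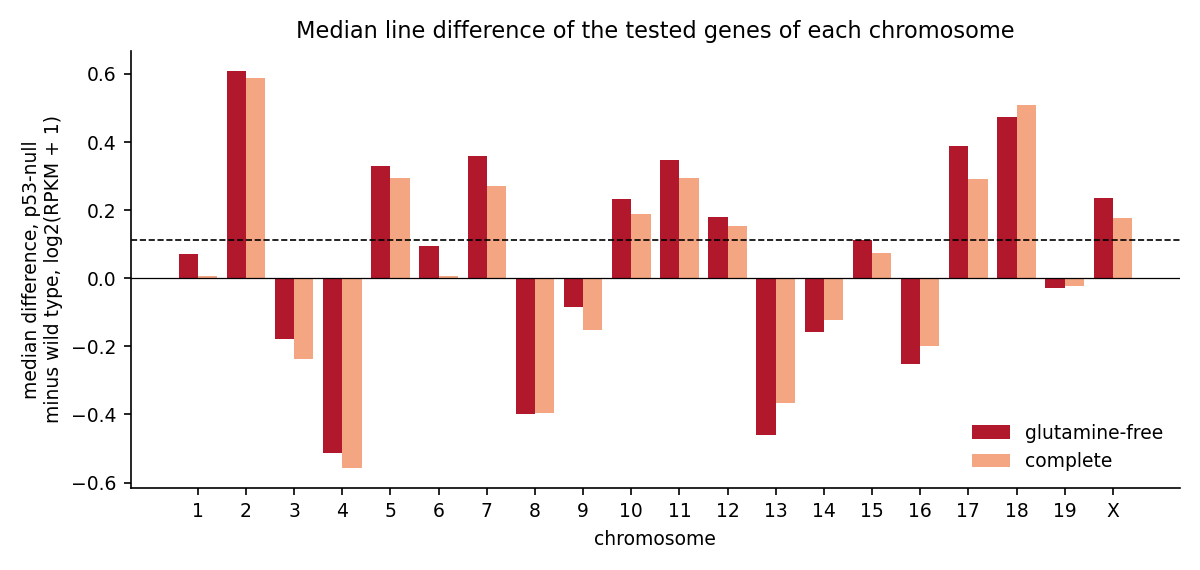
Median line difference (p53-null minus wildtype, log2(RPKM + 1) scale) of the tested genes on each chromosome, with 1 bar for glutamine-free and 1 for complete medium. The dashed line is the median of all genes in glutamine-free medium, 0.11. Chromosome 2 stands highest at 0.61 and chromosome 4 lowest at -0.51 without glutamine, and both media give nearly the same bars.

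The largest single differences are described here, and the 10 in each direction all differed the same way, by more than 2-fold, in complete medium. Enpp2, the secreted enzyme autotaxin, gave 0.032, 0.0343 and 0.0382 RPKM in the p53-null libraries and 198, 197 and 198 RPKM in the wildtype libraries, a difference of -7.58 and -8.47 with glutamine. Ptx3, a secreted pattern recognition protein, stood at 2.05 ± 0.0513 against 376 ± 5.04 RPKM, Serpine2, a protease inhibitor, at 0.0036 ± 0.00624 against 58.8 ± 1.32, Lcn2, an iron-siderophore carrier, at 1.19 ± 0.179 against 88.8 ± 1.73, and Cp, ceruloplasmin, at 0.498 ± 0.0375 against 56.7 ± 1.01. Erdr1 and Rgs2, the latter a brake on G protein signalling, were listed at 0 in the p53-null line and at 63.6 ± 1.83 and 51 ± 0.718 RPKM in the wildtype line. On the other side Tmsb4x, an actin-binding thymosin, gave 585, 585 and 595 RPKM in the p53-null libraries and 20.2, 23.8 and 26.4 RPKM in the wildtype libraries, a difference of 4.60. Lama5, a laminin chain, stood at 34.9 ± 0.402 against 0.374 ± 0.00652 RPKM, Gas6, a ligand of TAM receptors, at 25.4 ± 0.333 against 0.028 ± 0.0169, and Renbp at 22.3 ± 0.746 against 0.0176 ± 0.00136. Efemp1, a fibulin, was at 33.9 ± 0.81 RPKM and listed at 0 in the wildtype line.

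Many of these differences belonged to the lines in either medium. In complete medium 990 genes (9.05%) were 2-fold higher in the p53-null line and 1036 (9.47%) were 2-fold lower. Only genes that passed the glutamine-free filter were counted, so those at 1 RPKM in complete medium alone were left out. The 541 genes higher in both media made up 44.3% of the glutamine-free list and 54.6% of the complete list, and the 496 lower in both made up 55.1% and 47.9%. The change of the line difference with medium was called for 9277 genes (84.8%). Has2, hyaluronan synthase, was higher without glutamine at 7.92 ± 0.162 against 0.18 ± 0.00168 RPKM and lower with it at 2.2 ± 0.162 against 3.87 ± 0.0409 RPKM. Gstt1, a glutathione transferase, stood at 0.0514 ± 0.0262 against 2.52 ± 0.283 RPKM without glutamine and at 0.0919 ± 0.0441 against 67.1 ± 0.975 RPKM with it. Nos2, inducible nitric oxide synthase, stood at 0.00171 ± 0.00297 against 1.47 ± 0.132 RPKM without glutamine and 0.0107 ± 0.00475 against 31 ± 0.363 RPKM with it, and Cebpd, a transcription factor of the acute phase, at 0.853 ± 0.104 against 1.45 ± 0.0739 and 1.22 ± 0.103 against 31.9 ± 0.86 RPKM. For Gstt1, Nos2 and Cebpd the wildtype means differed more between the media than the p53-null means.

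**Figure D5:**
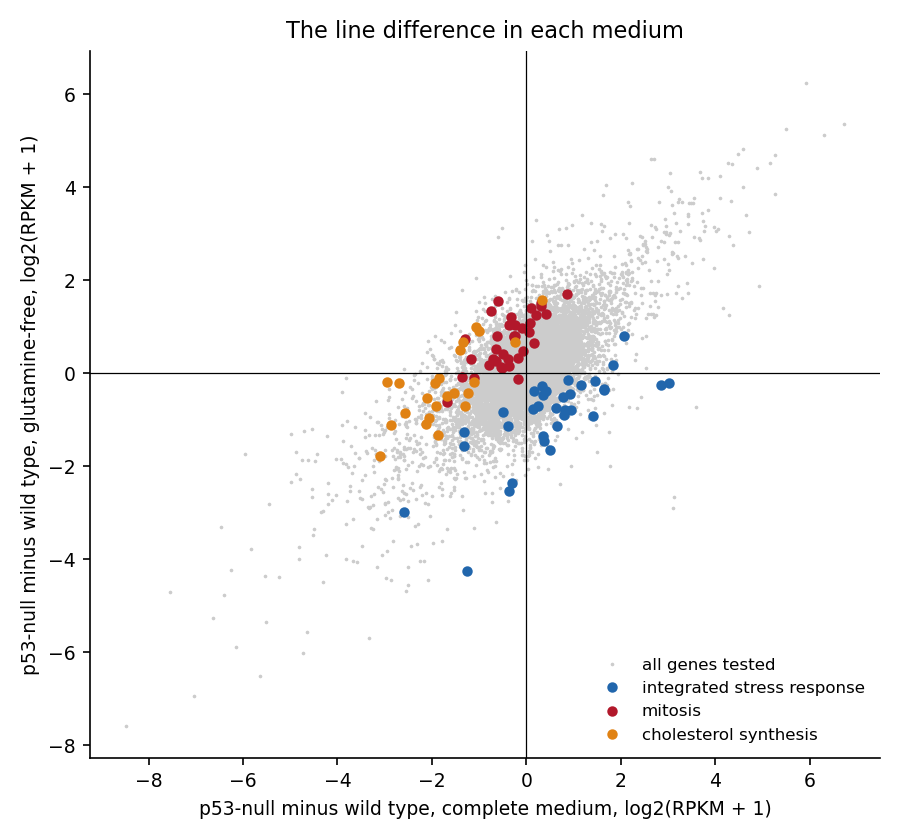
Line difference of each tested gene in complete medium (x axis) against glutamine-free medium (y axis), both p53-null minus wildtype on the log2(RPKM + 1) scale. Blue points are integrated stress response genes (medians 0.56 and -0.76), red points mitosis genes (-0.34 and 0.75) and orange points cholesterol synthesis genes (-1.84 and -0.43).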

How the data were processed

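Libraries were made from 0.5 ug of total RNA with the TruSeq RNA Sample Prep Kit V2, which does not keep strand, per the labels' protocols. The deposited table holds RPKM for 19439 entries in 12 libraries, and the submitters' processing notes name CASAVA 1.8, HISAT2 2.0.4, Partek and mm10. RPKM were computed by the authors, and 26 entries carry dates in place of gene names. From the deposited RPKM, log2(RPKM + 1) was fitted with limma 3.58.1 (R 4.3.3; eBayes with a mean-variance trend, Benjamini-Hochberg adjustment) on the 6 glutamine-free libraries, and on all 12 for the complete-medium difference and its change with medium. Fold changes on this scale understate those of low genes. Within-group agreement was checked by correlation, and the scripts were tested on simulated data.

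The genes and the 41 gene lists were chosen with earlier results of these data known. Named genes were Trp53, Slc7a3, Cdkn1a, Mdm2 and Cdkn2a, the 10 most extreme called genes in each direction with at least 2 RPKM, up to 4 called members with the largest difference per list, the 6 most extreme in each direction by change with medium, and detected markers of other cell types. Most genes named outside this rule are said to be. Others complete a count or a list, such as Chac1, Psph, Cdc20, Bub3, Ttk, Cdca8, Hoxb2 and the fat cell genes. Positions are from GENCODE M21 and promoters from RefSeq GRCm38.p6. Alternatives were another pseudocount (0.1), no filter, 3 other scalings, centring within chromosomes, a fit on 12 libraries, no trend, a replicate block and leaving out each library.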

Additional observations from a re-analysis of the deposited data

Results flagged for a closer look

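The genes below had a line difference of opposite sign in the 2 media, and the change of the difference between media was called (limma over 12 libraries, Benjamini-Hochberg adjusted). The change is the glutamine-free difference minus the complete one, each p53-null minus wildtype. Car6, a secreted carbonic anhydrase, gave 11.7, 10.5 and 10.7 RPKM in the p53-null libraries and 89.1, 88 and 89.9 RPKM in the wildtype libraries without glutamine and 9.39 ± 0.571 against 0.211 ± 0.0638 RPKM with it, and the change was -6.01 (adjusted p = 6.06e-16). Avil, advillin, an actin-binding protein, stood at 10.2 ± 0.0672 against 70.00 ± 0.511 RPKM without glutamine and 9.18 ± 0.243 against 0.161 ± 0.0587 with it, with a change of -5.80. For both, the wildtype means differed far more between the media than the p53-null means. Angptl6, a secreted angiopoietin-like factor, stood at 8.16 ± 0.374 against 35.9 ± 0.695 and 7.04 ± 0.406 against 1.36 ± 0.107 RPKM, with a change of -3.78. Cox6a2, a respiratory chain subunit of muscle, stood at 1.83 ± 0.0954 against 8.18 ± 0.502 and 2.18 ± 0.485 against 0.113 ± 0.00282 RPKM, with a change of -3.20. Aldh1l2 changed by -2.61, and Cyr61, in the opposite sense, by 2.81.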

How the results depend on the processing

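Leaving out each library in turn gave 5553 to 5631 genes higher and 4263 to 4365 lower, 1212 to 1236 at least 2-fold higher and 887 to 906 lower. The replicate block, with the replicate number of the labels as a term, gave 5661 higher, 4354 lower, 1222 2-fold higher and 900 2-fold lower. The labels do not state that the numbers pair the samples. The correlations of same-numbered libraries' deviations were 0.01, -0.01 and -0.08, and those of differently numbered libraries ran from -0.08 to 0.09. With so few libraries these values cannot decide whether the samples are paired. Over the alternatives run, the 2-fold counts ranged from 774 to 1659 higher and from 726 to 1168 lower. The count of 774, after centring within chromosomes (chosen after the chromosome medians were seen), was the only count that moved by more than 1.5 times. The median of all genes turned from 0.11 to -0.0272 with median centring and to -0.0500 with centring within chromosomes, and several list medians near 0 turned sign with it. With one sum per library these were p53 targets in cell death and metabolism (0.0832), sestrins and mTORC1 regulators (0.075), fatty acid synthesis (0.0795), immediate early genes (0.0517) and nucleotide synthesis (0.0217). With median centring these were DNA replication (-0.0228), the tricarboxylic acid cycle (-0.117) and the p53 locus and regulators (-0.134). With centring within chromosomes these were DNA replication (-0.0667), the tricarboxylic acid cycle (-0.0203), the p53 locus and regulators (-0.0793), D cyclins (-0.0334), eIF2alpha kinases (-0.017) and arginine and polyamine enzymes (-0.118). Quantile normalization turned the interferon response (-0.0185) and the p53 locus and regulators (-0.101), and no filter on low values turned immediate early genes (0.0935), the p53 locus and regulators (-0.0325) and muscle and neural markers (0.0127). Among called genes Trib3 turned to 0.0238 (adjusted p = 0.232) and Asns to 0.06 with quantile normalization. With one sum Bub3 turned to 0.03, Ttk to 0.04 and Cdca8 to 0.06, and within chromosomes Cdca8 to 0.33 and Chac1 to -0.42. Ccdc80, an extracellular matrix gene whose difference changed with medium, turned to 0.00871 with one sum (adjusted p = 0.798) and to 0.0115 within chromosomes (adjusted p = 0.752). The cause was not tested for any of these. Read counts could not be recovered from the values, so no count test was run and depth gives no limit for low genes.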

Other observations

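The genes in this paragraph were singled out after their values were seen. Sesn1, a p53 target that restrains mTORC1, stood at 2.63 ± 0.141 against 2.76 ± 0.106 RPKM (p53-null first) without glutamine, a difference that was not called, and at 4.04 ± 0.111 against 17.2 ± 0.38 RPKM in complete medium. Sesn2, a target of p53 and of Atf4, gave 16.3, 16.6 and 16.1 RPKM in the p53-null libraries and 26.4, 29.2 and 28.6 RPKM in the wildtype libraries without glutamine and was lower (-0.75), while complete medium gave 8.87 ± 0.0953 against 5.42 ± 0.161 RPKM and a positive difference of 0.62. The proapoptotic p53 target Bax also changed sides, at 34.8 ± 0.443 against 41.8 ± 1.2 RPKM without glutamine and 52.9 ± 0.615 against 22.4 ± 0.587 RPKM with it, a change of -1.46 (limma, adjusted p = 1.99e-13). Pmaip1, the p53 target Noxa, gave 0.0251, 0.0179 and 0.0167 RPKM in the p53-null libraries and 0.999, 1.1 and 1.14 RPKM in the wildtype libraries and passed the level of 1 RPKM in too few libraries to be tested. Slc7a5, the carrier that exchanges glutamine for leucine and an Atf4 target, gave 67.5, 68.1 and 68.9 RPKM in the p53-null libraries and 182, 192 and 191 RPKM in the wildtype libraries. It was 2-fold lower without glutamine (-1.45) and higher in complete medium (0.38). Hoxc10 and Hoxd9, just under the testing level in some libraries, gave 1.09, 0.808 and 1.16 and 0.941, 1.03 and 1.05 RPKM in the p53-null line and were listed at 0 in all 3 wildtype libraries.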
